A study of Homo sapiens with 4 samples.

Results

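The genes described here encode the proteins that place, remove and recognise N6-methyladenosine (m6A), a methyl mark on adenosines inside RNA. They were chosen by symbol as METTL3, METTL14, WTAP, ZC3H13, ALKBH5, FTO, YTHDF1, YTHDF2, YTHDF3 and YTHDC1. All 10 symbols were found once each among the 51740 rows of the table, and all 10 were among the 23333 tested genes, those given an adjusted p-value. RNA was sequenced from a nuclear and a cytoplasmic fraction of wildtype HEK293T cells, an established line derived from human embryonic kidney and expressing SV40 large T antigen, to ask how RNAs are divided between both compartments. Cells of both groups were crosslinked with formaldehyde before they were fractionated. There were 4 libraries, 2 nuclear and 2 cytoplasmic, from independent biological replicates of this single line, each prepared from 400 ng of RNA after depletion of ribosomal RNA. Since every library began with the same mass of RNA, a value is relative to the other RNAs of its library and not an amount per cell. Nor is it a share of the library's counts, since the scaling used did not make the library totals equal.

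As background, the methyl mark is placed on nascent RNA in the nucleus by the METTL3 and METTL14 heterodimer, which is held in nuclear speckles by a regulatory complex built around WTAP and ZC3H13. FTO and ALKBH5, both dioxygenases of the AlkB family, can take it off again. Proteins with a YTH domain bind the methylated base: YTHDC1 does so in the nucleus, where it acts in splicing and export, and YTHDF1, YTHDF2 and YTHDF3 do so in the cytoplasm, where they act on translation and decay. The measurements here concern the RNAs of these genes, not their proteins and not the mark itself.

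METTL3 methylates adenosines in a short sequence whose commonest form is GGACT, and the RNAs of the members contain this sequence themselves. To show it, the last GGACT inside the coding sequence is printed for METTL3, for ALKBH5 and YTHDF1, which were higher in the cytoplasmic fraction, and for YTHDF2, a paralogue of YTHDF1 that did not pass the test, each within 25 bases of the canonical transcript of GENCODE 44 on hg38, 5′ to 3′, with the motif in capitals.

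METTL3: gtgcagaacaGGACTcgactacagt

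ALKBH5: agtcctcagaGGACTgctctgaggc

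YTHDF1: agtcccccgtGGACTacggcaccag

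YTHDF2: aatctgctgtGGACTacaacacatg

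The METTL3 window lies in exon 3 of 11, on the minus strand at chr14:21503336-21503360. The ALKBH5 window is in the last of 4 exons, on the plus strand at chr17:18208329-18208353. The YTHDF1 window is in exon 4 of 5, on the minus strand at chr20:63202558-63202582, and the motif ends 305 bases before the end of the coding sequence. In YTHDF2, the motif ends 302 bases before the end of the coding sequence, in exon 4 of 5, on the plus strand at chr1:28743691-28743715. The windows of these paralogues were equal at 17 of 25 bases. The bases of the motif are among these 17 by the choice of the windows. GGACT, read on the transcript strand, occurred in the canonical transcripts of all 10 members and of 91.8% of the 12134 protein-coding genes whose mean normalized count exceeded 50. METTL3 had 2.02 occurrences per kb and YTHDF1 0.313 per kb, against a median of 0.913 per kb over those genes. No methylation was measured in these libraries, so an occurrence of the letters is not a methylated site.

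The deposited table gives each gene a mean over all libraries, a fold change and its standard error. Whole counts per library were recovered from these 3 values for 99.4% of the tested genes, among them every member. A normalized count is such a count divided by the size factor of its library. The recovered counts summed to 22568683 and 19606725 in the nuclear and to 15784545 and 14524709 in the cytoplasmic libraries. These sums leave out 146 tested genes that were not recovered, 121 of them with a mean over 5000, and are therefore below the depth of the libraries. The replicate number of a recovered library is not known, so both libraries of a fraction are called deeper and shallower after their size factors. As a check of the fractions, the nuclear RNAs MALAT1 and NEAT1 had log2 fold changes of -3.47 and -3.09, cytoplasm over nucleus, and the ribosomal protein mRNAs RPLP0 and RPS2 were at 3.77 and 3.78. The neurofilament genes NEFM and NEFL, known to be expressed in HEK293 cells, had means of 16264 and 13195, and the renal gene PAX2 had a mean of 63.1. Markers of leukocytes (PTPRC), hepatocytes (ALB) and endothelium (PECAM1) had means of 1.76, 0.793 and 6.22, while the fibroblast gene COL1A1 had a mean of 213.

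In the authors' DESeq2 comparison, 2 of the 10 members were higher in the cytoplasmic fraction (adjusted p-value no higher than 0.01), where 25.9% of all tested genes were called in that direction. These were ALKBH5 and YTHDF1. In the nuclear fraction, 5 members were higher, where 26.5% of the tested genes were called: ZC3H13, FTO, YTHDC1, METTL14 and YTHDF3. WTAP, METTL3 and YTHDF2 did not pass. The median log2 fold change was -0.23 over the members, -0.12 over all tested genes and 0.11 over the tested protein-coding genes. The erasers fell on opposite sides of this comparison, as did the readers YTHDF1 and YTHDF3, and each of the 4 writers either was nuclear or did not pass. All 10 members had a mean over 50, and genes with a low mean are called less often. Among genes with a mean over 50, limma on the recovered counts called 42.4% cytoplasmic and 39.6% nuclear. It called the same 2 and 5 members.

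**Figure D1:**
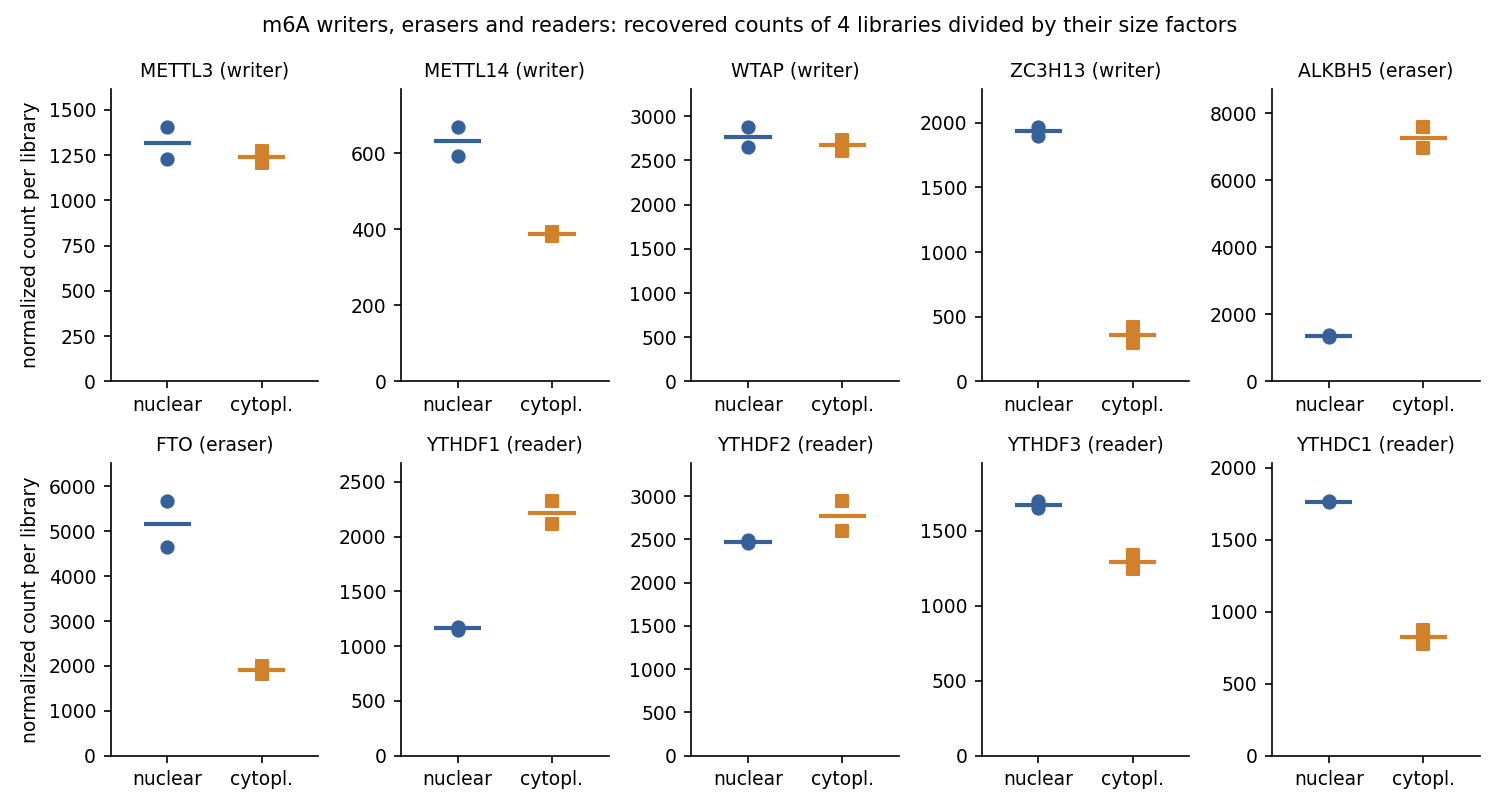
Normalized counts of the 10 members in each library, from 0, on a scale of its own for each gene. Circles are the nuclear and squares the cytoplasmic libraries, and a bar marks the mean of 2 libraries. The libraries of both fractions lie apart for 8 genes and overlap for METTL3 and WTAP.

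Of the catalytic pair, METTL3, the subunit that transfers the methyl group, had normalized counts of 1227 in the deeper and 1404 in the shallower nuclear library, and of 1205 and 1275 in the cytoplasmic ones. The fractions overlapped, and the spread between the nuclear libraries was larger than the difference of the means, 1316 ± 126 and 1240 ± 49.1 (SD, n = 2 each). Its log2 fold change was -0.09 with a standard error of 0.135 (95% interval -0.35 to 0.18), and its adjusted p-value in the authors' DESeq2 table was 0.610. METTL14, the partner that helps to hold the RNA, was at 594 and 669 in the nuclear and 394 and 382 in the cytoplasmic libraries. Both nuclear values were above both cytoplasmic ones. The log2 fold change of METTL14 was -0.70 with a standard error of 0.170, a 1.63-fold nuclear excess, and its DESeq2 adjusted p-value was 8.13e-05. Set against each other, METTL14 had 0.484 and 0.477 counts for each METTL3 count in the nuclear libraries, against 0.327 and 0.299 in the cytoplasmic libraries. This ratio is formed within a library and does not change with any scaling of the libraries. On the log2 scale it differed by -0.62 between the fractions, against 0.02 and 0.13 between the libraries of a fraction. With 2 libraries in each fraction, a two-sided exact permutation test of such a ratio cannot go below p = 0.333, and all 6 ratios formed between members had this value.

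Of the regulatory subunits, WTAP, which recruits the catalytic pair to nuclear speckles, was at 2647 and 2877 in the nuclear and 2608 and 2734 in the cytoplasmic libraries, overlapping ranges. Its log2 fold change of -0.05 had a 95% interval of -0.27 to 0.18, and its adjusted p-value in the DESeq2 table was 0.741. The whole span of WTAP overlaps another gene model in GENCODE 44, and the authors removed shared stretches of their own annotation before counting, so the number of its bases that were counted is not known here. ZC3H13, a zinc finger protein that keeps the regulatory complex in the nucleus, had normalized counts of 1899 and 1965 in the nuclear libraries but only 420 and 299 in the cytoplasmic libraries. It was the most nuclear member, at -2.42 on the log2 scale (standard error 0.162), a 5.36-fold difference with a DESeq2 adjusted p-value of 1.81e-49. The cytoplasmic libraries differed by 1.40-fold for ZC3H13, which is more than for 98.5% of the 8386 recovered genes with a mean over 500. With either of them left out, in limma fits of the recovered counts, the log2 fold change was -2.69 and -2.20.

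The erasers differed in opposite directions. ALKBH5, a demethylase found in the nucleus, had normalized counts of 1313 and 1375 in the nuclear and 6958 and 7579 in the cytoplasmic libraries. Every cytoplasmic value was more than 5 times either nuclear value. The log2 fold change of ALKBH5 was 2.44 with a standard error of 0.112 (95% interval 2.22 to 2.65), above 93.4% of the tested protein-coding genes, with a DESeq2 adjusted p-value of 1.04e-103. FTO, which also acts on the related m6Am mark next to the cap, was at 5666 and 4643 in the nuclear and 1829 and 2002 in the cytoplasmic libraries. Its nuclear libraries differed by 1.22-fold, more than for 91.8% of the genes with a mean over 500, and neither came near the cytoplasmic values. The nuclear RNA NEAT1 was higher in the same library by 1.21-fold, and whether this library bears on FTO was not tested beyond leaving it out, which gave a log2 fold change of -1.28 in limma. The log2 fold change of FTO was -1.43 (standard error 0.129), a 2.69-fold nuclear excess, with a DESeq2 adjusted p-value of 1.18e-27. Within each nuclear library there were 4.31 and 3.38 FTO counts for each ALKBH5 count, and within each cytoplasmic library 0.263 and 0.264. The log2 ratio of the 2 erasers thus changed by -3.86 between the fractions, against 0.35 between the nuclear and 0.01 between the cytoplasmic libraries.

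**Figure D2:**
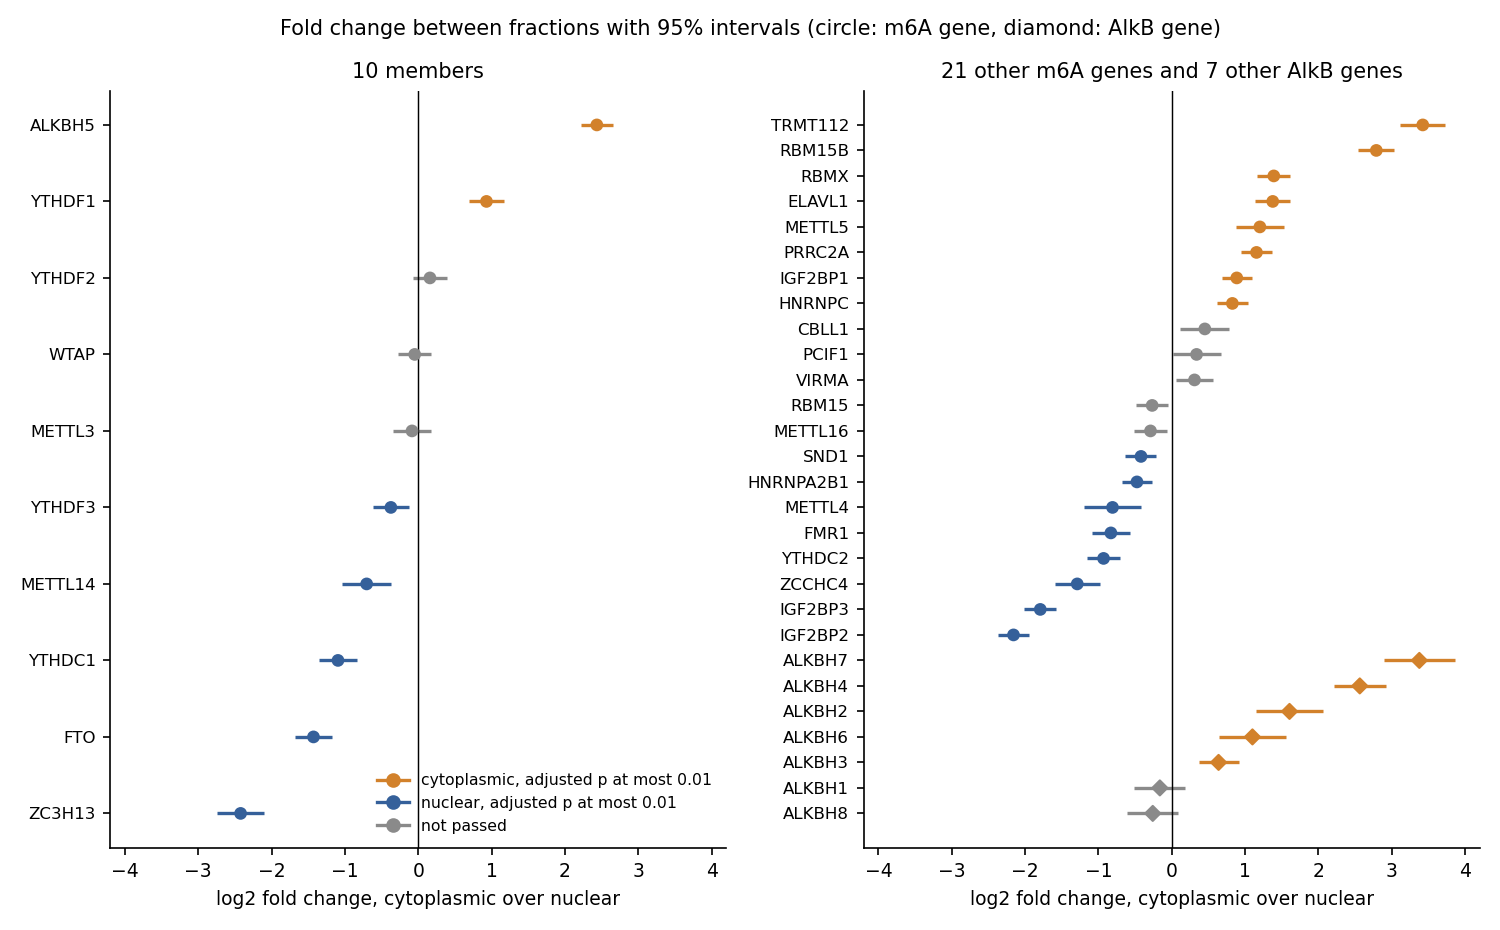
Log2 fold change, cytoplasmic over nuclear, of the 10 members (left) and of the 21 other m6A genes and 7 other AlkB genes (right), with 95% intervals from the deposited standard errors. Orange marks genes called cytoplasmic, blue those called nuclear and grey those that did not pass. The erasers ALKBH5 and FTO stand on opposite sides, and RBM15B is orange while its paralogue RBM15 did not pass.

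Among the readers, YTHDF1, linked to translation of methylated mRNA, had normalized counts of 1179 and 1149 in the nuclear and 2115 and 2322 in the cytoplasmic libraries, without overlap. Its log2 fold change was 0.93 with a standard error of 0.124 (95% interval 0.69 to 1.17), a 1.91-fold cytoplasmic excess, and its DESeq2 adjusted p-value was 2.4e-13. YTHDF2, which recruits the CCR4-NOT deadenylase to methylated mRNA, was at 2494 and 2455 in the nuclear and 2591 and 2939 in the cytoplasmic libraries. Both cytoplasmic values were higher, but the cytoplasmic libraries lay further apart than the lower of them lay from the nuclear ones. The log2 fold change of YTHDF2 was 0.16 with a 95% interval of -0.07 to 0.39, and its DESeq2 adjusted p-value was 0.245. YTHDF3, thought to work with both paralogues, had values of 1695 and 1650 in the nuclear and 1245 and 1338 in the cytoplasmic libraries, so that both nuclear values were higher. Its difference was the smallest among those that passed, with a log2 fold change of -0.37, a standard error of 0.125 and a DESeq2 adjusted p-value of 0.00583. With 1 library left out, limma over genes with a mean over 50 did not call YTHDF3 without the deeper nuclear or the deeper cytoplasmic library, at adjusted p-values of 0.0184 and 0.0186, and limma over all recovered genes did not call it in any of 4 such fits, at 0.0164 to 0.0809. Ratios formed within a library restate these fold changes without the scaling, so they are no further evidence of the order. For each YTHDF1 count there were 1.44 YTHDF3 counts in both nuclear libraries, and 0.589 and 0.576 in the cytoplasmic libraries. YTHDF2 had 2.12 and 2.14 counts per YTHDF1 count in the nuclear libraries and 1.23 and 1.27 in the cytoplasmic libraries. YTHDC1, the nuclear reader, was at 1759 and 1766 in the nuclear and 876 and 774 in the cytoplasmic libraries. The nuclear libraries were nearly equal for YTHDC1, and the log2 fold change was -1.09 with a standard error of 0.133, 2.14-fold nuclear, with a DESeq2 adjusted p-value of 9.15e-16.

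In order of log2 fold change, the members ran from ALKBH5 through YTHDF1, YTHDF2, WTAP, METTL3, YTHDF3, METTL14, YTHDC1 and FTO to ZC3H13. The 95% intervals of neighbouring genes overlapped from YTHDF2 to FTO, and no interval overlapped between ALKBH5 and YTHDF1, between YTHDF1 and YTHDF2, or between FTO and ZC3H13. For 8 members both libraries of a fraction lay above both of the other, 3 of them with the cytoplasm higher and 5 with the nucleus higher. This was so for 85.9% of the 23187 recovered genes, 40.2% cytoplasmic and 45.7% nuclear, so that the members' share is near the background.

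The point at which the fractions are called equal depends on the scaling. The deposited size factors differ from equal library totals, under which every log2 fold change is lower by 0.66 and 16.2% of the tested genes are called cytoplasmic and 38.3% nuclear. On that scale 1 member, ALKBH5, was cytoplasmic and 8 were nuclear. YTHDF1 fell to 0.27 and did not pass, as the deposited DESeq2 standard errors then gave an adjusted p-value of 0.0499. YTHDF2, METTL3 and WTAP moved to -0.50, -0.75 and -0.71 and were called nuclear. Most of this shift came from abundant genes that were not recovered. The 56 genes with a mean of 20000 or more held 29.2% of all cytoplasmic normalized counts but 6.76% of the nuclear ones. Over the recovered genes alone the totals differed by 0.18 on the log2 scale, and with these made equal the 2 cytoplasmic and 5 nuclear members were called as on the deposited scale. The order of the members is the same under any such shift.

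**Figure D3:**
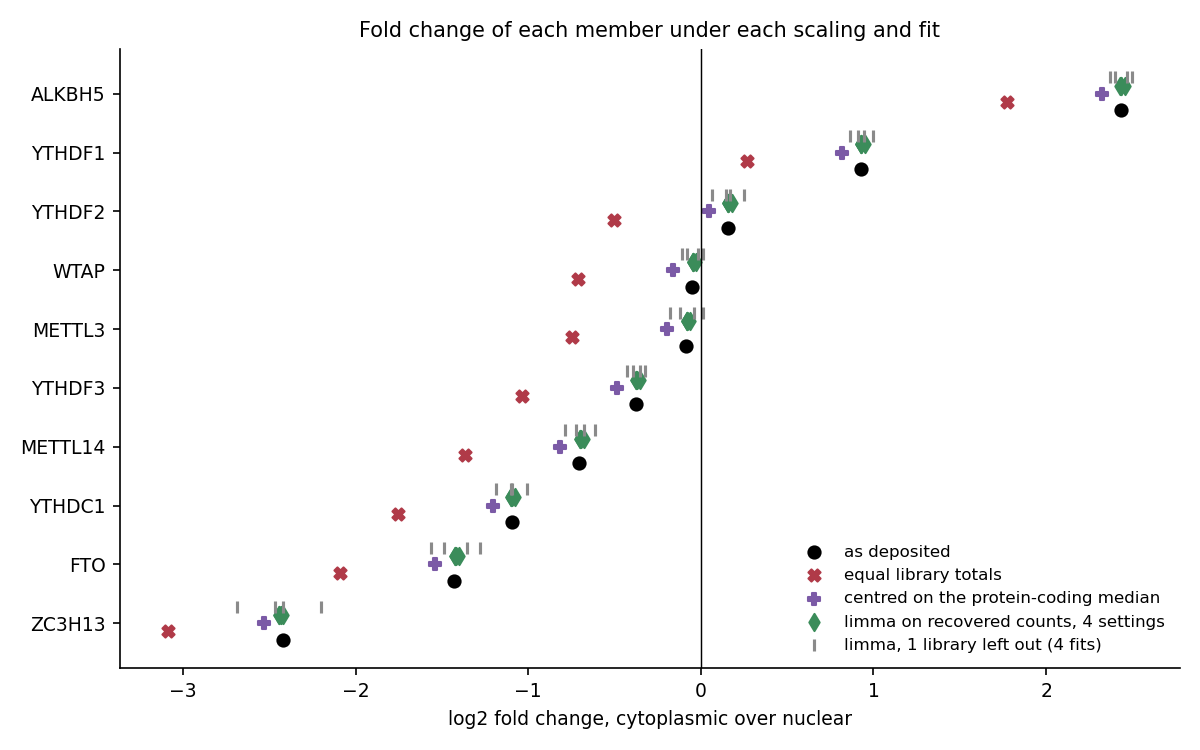
Log2 fold change of each member, cytoplasmic over nuclear, as deposited, with equal library totals, centred on the protein-coding median, and in limma fits of the recovered counts with all libraries (4 settings) or with 1 of 4 libraries left out (genes with a mean over 50). Leaving out a library moved every member by less than equal library totals did.

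Reads over exons and introns were counted together by the authors, so that gene structure can bear on each value, and unspliced RNA adds to it in either fraction. How far it does so was not tested. The members span from 13.2 kb (METTL3) to 457 kb (FTO), and introns make up between 55.6% (METTL3) and 95.3% (FTO) of the span. They were therefore set beside protein-coding genes of a similar span, in 10 classes of equal size taken from the 12134 with a mean over 50. This is a description, since the genes of a class are not replicates. FTO, nuclear on the deposited scale, was in the longest class, whose median log2 fold change was -2.03 and where 91.5% of the genes were called nuclear. FTO lay 0.60 above that median and above 69.3% of its class. ALKBH5 (26.9 kb) lay 1.74 above the median of its class, higher than 97.0% of it. YTHDF1 (20.7 kb), in the same class, was 0.23 above the median, higher than 59.3%.

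The 4 writers among the members lay below the median of their class. The other subunits of the writer complex fell on both sides. VIRMA and RBM15B lay 0.47 and 0.54 above their medians, and RBM15 and CBLL1 lay 1.77 and 0.24 below. ZC3H13 (98.3 kb) was 1.92 below, with 3.63% of its class lower. METTL3, which did not differ between fractions beyond its error, was 1.16 below. Genes of its short span had a median of 1.08, and 69.7% of them were called cytoplasmic. METTL14 and WTAP, with almost the same span of 30042 and 30735 bases, were 1.12 and 0.46 below a median of 0.41. YTHDC1 was 1.31 below and had 12.3% of its class under it. YTHDF3 was 0.59 and YTHDF2 0.25 below. Among the members, 7 were thus below and 3 above the median of genes of their span. Over all tested protein-coding genes in place of those with a mean over 50, each member stayed on its side of the median. ALKBH5 then fell in the next longer class, 2.06 above its median.

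**Figure D4:**
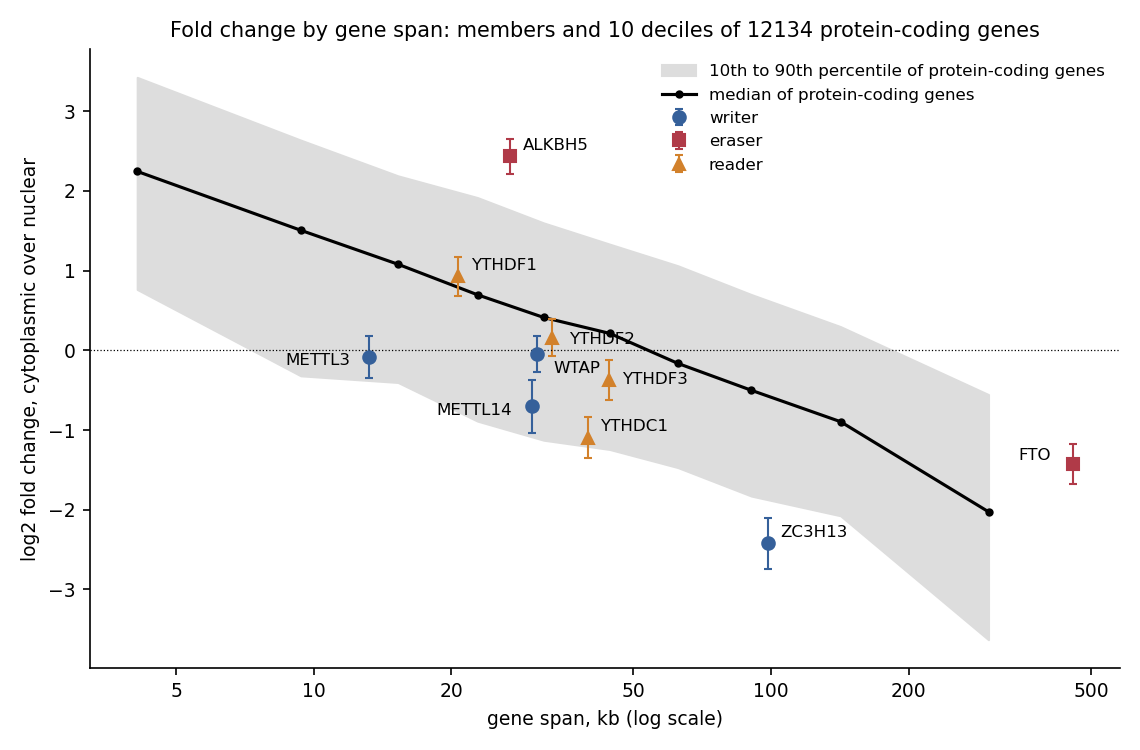
Log2 fold change, cytoplasmic over nuclear, of the 10 members against gene span in kb (log scale), with 95% intervals. The line is the median and the band the 10th to 90th percentile of 12134 protein-coding genes in 10 classes of span, drawn at the median span of each class. ALKBH5 is above and ZC3H13 below the band, and FTO, beyond the median span of the last class, has a higher value than that class's median.

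A list of 21 other m6A genes gave 8 cytoplasmic and 8 nuclear calls, with 5 that did not pass. Of all tested genes, 25.9% and 26.5% were called. All 21 had a mean over 50, and genes with a low mean are called less often. In limma over genes with a mean over 50, 10 and 8 of the list were called, beside 42.4% and 39.6% of those genes. The median log2 fold change of the list was 0.31, or -0.35 with equal library totals. On that scale 6 of the list were cytoplasmic and 11 nuclear, against 16.2% and 38.3% of all tested genes. Of the other subunits of the writer complex, RBM15B, an RNA-binding adaptor, was called cytoplasmic. It had normalized counts of 657 and 768 in the nuclear and 4756 and 5090 in the cytoplasmic libraries, a log2 fold change of 2.79 (standard error 0.125). RBM15B spans 6.62 kb without introns and lay above 71.8% of the shortest class, where 89.95% of the genes were called cytoplasmic. Of its span, 30.8% overlaps other gene models, with the same limit as for WTAP. Its paralogue RBM15, at 3474 and 3337 in the nuclear and 2805 and 2857 in the cytoplasmic libraries, was at -0.27 and did not pass (DESeq2 adjusted p-value 0.0275). Neither did VIRMA, the scaffold of the complex, at 0.31, nor CBLL1, its RING finger subunit, at 0.45. With equal library totals RBM15 and VIRMA were called nuclear. For all 3 the libraries of the fractions lay apart, and the DESeq2 adjusted p-value was between 0.0153 and 0.0275.

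Among other methyltransferases, TRMT112, the small partner that stabilises several of them, had the highest value of the list, 3.42. It spans 1.1 kb and lay above 89.9% of the shortest class, where 89.95% of the genes were called cytoplasmic. Of the TRMT112 span, 25.8% overlaps other gene models. METTL5, the 18S rRNA methyltransferase that needs TRMT112, was also called cytoplasmic, at 1.20. ZCCHC4, which methylates 28S rRNA, and METTL4, which methylates U2 snRNA, were called nuclear at -1.29 and -0.81. METTL16, which modifies U6 snRNA, and PCIF1, which methylates adenosines next to the cap, did not pass, at -0.29 and 0.34.

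All 11 other readers and reader-like proteins passed, 5 of them cytoplasmic and 6 nuclear. Most genes of such a mean are called: over genes with a mean over 50, limma called 42.4% cytoplasmic and 39.6% nuclear. YTHDC2, a helicase with a YTH domain, was nuclear at -0.93, close to YTHDC1. The IGF2BP family, which protects bound mRNAs, was divided: IGF2BP1 had 6455 and 6931 in the nuclear and 12265 and 12489 in the cytoplasmic libraries, for a log2 fold change of 0.89. IGF2BP2 and IGF2BP3 were nuclear at -2.16 and -1.79. FMR1, which binds mRNA of neurons and many other cells, was at -0.83, and HNRNPA2B1 and SND1 were at -0.47 and -0.42. SND1 spans 440 kb and lay above 92.2% of the longest class, where 91.5% of the genes were called nuclear. The other nuclear readers of this list lay below the medians of their classes. On the cytoplasmic side were RBMX at 1.39, the stabilising protein ELAVL1 at 1.38, PRRC2A at 1.16 and HNRNPC at 0.83. With equal library totals HNRNPC and IGF2BP1 no longer passed. HNRNPC, RBMX and HNRNPA2B1 have closely similar copies in the genome, so the assignment of their reads is less certain. Of the HNRNPA2B1 span, 53.8% overlaps other gene models, with the same limit as for WTAP.

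Both erasers belong to the AlkB family of dioxygenases, whose 9 genes gave 6 cytoplasmic calls and 1 nuclear call, beside 25.9% and 26.5% of all tested genes. Their median log2 fold change was 1.10, or 0.44 with equal library totals. FTO was the family's only nuclear call on the deposited scale, and ALKBH8 and ALKBH1, at -0.26 and -0.16, did not pass. With equal library totals these 2 were called nuclear as well, and ALKBH3 and ALKBH6 no longer passed. ALKBH7, a mitochondrial member, had the highest value, 3.38 with a standard error of 0.249, from normalized counts of 40.3 and 55.5 in the nuclear and 450 and 541 in the cytoplasmic libraries. ALKBH4 was at 2.56, ALKBH2 and ALKBH3, which repair alkylated nucleic acids, were at 1.61 and 0.64, and ALKBH6 was at 1.10. In GENCODE 44, 99.9% of the ALKBH6 span and 33.4% of the ALKBH3 span overlap other gene models. As for WTAP, the number of their bases that were counted is not known here. FTO, the most nuclear gene of the family, stood at one end, and ALKBH5 was the third highest on the deposited scale. The shares of all tested genes given above are not matched for mean or span. All 9 genes of the family had a mean over 50. In limma over genes with a mean over 50, 6 and 1 of the family were called, beside 42.4% and 39.6% of those genes. ALKBH2, ALKBH6 and ALKBH7 fell in the shortest class, where 89.95% of the genes were called cytoplasmic. ALKBH4 fell in the next class, where 76.8% were. Relative to genes of the same span, ALKBH7 and ALKBH4 were above 89.3% and 88.2% of their classes and ALKBH3 above 68.7%. ALKBH2 and ALKBH6, though called cytoplasmic, were above only 27.3% and 14.6%.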

How the data were processed

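Per the labels, RNA of 2 nuclear and 2 cytoplasmic libraries was read from both ends for 100 nt. The authors aligned the reads to hg38 with STAR and counted them with featureCounts 2.0.2 over exons and introns of an extended GENCODE 34 annotation without stretches shared between genes. DESeq2 was used by the authors to compare both fractions. The deposited table holds that comparison, cytoplasm over nucleus: the authors' mean normalized count (a signal over all 4 libraries), the deposited log2 fold change and standard error, the authors' Wald score, and deposited p-values before and after adjustment. These columns were used as the authors' values, at the study's threshold of 0.01.

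From the smallest steps of the mean, the size factors 1.34, 1.19, 0.853 and 0.755 were read, the first 2 nuclear. Whole counts were accepted where a single quartet gave back the mean within its last digit, the log2 fold change within 2e-08 and the standard error within 3e-09, in a refit of the negative binomial model. Genes with a mean of 20000 or more were not tried. Recovery and tests were tested on simulated data. The means drawn for the recovery test stopped below those of ALKBH5 and of the most abundant listed genes, so it does not cover them. limma 3.58.1 (R 4.3.3, trend) was run on log2(recovered normalized count + 0.5), with fold changes on that scale. The planned edgeR test was not run, though the recovered counts would allow it. The deposited columns are not counts, and limma was run on the recovered ones in its place. Intervals are normal 95% intervals. Gene structure came from GENCODE 44 on hg38, a later release than the authors'. The members, lists and tests were chosen with earlier results of these data known. The genes named were the members, the listed genes and 4 RNAs that check the fractions. Alternatives were other scalings, thresholds, limma settings and leaving out a library.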

Additional observations from a re-analysis of the deposited data

How the results depend on the processing

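With equal library totals, 1 member was cytoplasmic and 8 were nuclear, 3 AlkB genes were nuclear, and YTHDF2 turned from 0.16 to -0.50, which follows from the shift of 0.66. Of all tested genes, 16.2% were then called cytoplasmic and 38.3% nuclear. With equal totals of the recovered genes, chosen after seeing the data, YTHDF2 was at -0.0208 and the member counts were 2 and 5. On that scale 23.1% and 29.6% of the tested genes were called. With Bonferroni adjustment the nuclear calls numbered 3 members, without METTL14 and YTHDF3, and 5 other m6A genes, since it passes fewer genes. It called 17.3% of the tested genes nuclear. Requiring an absolute log2 fold change over 0.5 removed YTHDF3 and called 25.5% of the tested genes nuclear. All other thresholds and scalings run, and all 4 limma settings with every library, chosen after seeing the data, gave 2 cytoplasmic and 5 nuclear members. In limma over genes with a mean over 50, 42.4% and 39.6% of the genes were called in these directions.

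When limma left out 1 library in turn, METTL3 ranged from -0.18 to 0.015 and WTAP from -0.11 to 0.012, turning positive without the shallower nuclear library, with adjusted p-values of 0.923 and 0.937 over genes with a mean over 50. Over those genes there were 2 cytoplasmic members in each fit and 4 or 5 nuclear ones, where 40.2% to 41.1% and 36.6% to 38.6% of the genes were called. Over all recovered genes and both gene sets together, members ranged from 0 to 2 cytoplasmic and 0 to 5 nuclear, other m6A genes from 0 to 10 and 0 to 8, and AlkB genes from 0 to 6 and 0 to 1. The zeros come from fits over all recovered genes without a nuclear library, in which limma called 0 of 23187 genes, although 13147 and 13405 had an unadjusted p-value under 0.05. A lone nuclear library is assumed there to vary like the cytoplasmic ones.

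Percentiles within classes of span moved beyond their 95% Wilson interval for 8 members when all tested protein-coding genes formed the classes, as for METTL3 from 13.9% to 22.2%. The planned edgeR and DESeq2 refits were not run, though the recovered counts would allow them. No deposited column holds counts, and limma was used on the recovered ones in their place. The replicate numbers of the recovered libraries are not known, so limma was run with a replicate block under both possible pairings, chosen after seeing the data. Both gave 2 cytoplasmic and 5 nuclear members, and 9 or 11 cytoplasmic and 8 or 9 nuclear other m6A genes. Over genes with a mean over 50, these pairings called 41.4% or 43.6% of the genes cytoplasmic and 38.8% or 40.7% nuclear. The deviations of the deeper libraries from their group means had a correlation of -0.187 across 13760 genes, which does not show which libraries belong together. The median standard error of the deposited log2 fold change, which falls with depth, was 0.13 over the members against 0.29 over all tested genes.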
